A study of Mus musculus with 16 samples.

Results

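Embryonic stem cells of the mouse, which divide in culture while keeping the capacity to form all tissues, were labelled with 5-ethynyl uridine (EU) to capture newly made RNA with and without Mettl14. The 100 gene identifiers described here held a smaller share of the captured RNA in Mettl14 CKO cells than in Control cells after 10, 20 and 60 min of labelling, and were chosen by that fall itself. Levels are in CPM, a count divided by the library's total of mouse counts and multiplied by 1000000. Identifiers with a mean of at least 20 CPM over the 12 libraries of 10, 20 and 60 min numbered 7287 of 54446. For each of these 3 times the log2 ratio of mean CKO CPM + 1 over mean Control CPM + 1 was taken, and the 100 identifiers with the smallest maximum of the 3 values are the members. They are ranked from 1, the deepest least fall, to 100. The 4 libraries of 30 min played no part in the choice.

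METTL14 and METTL3 form the core of the complex that deposits N6-methyladenosine on RNA as it is transcribed. METTL3 carries the catalytic site, and METTL14 helps to hold the RNA substrate. EU is a uridine analogue that RNA polymerases build into growing transcripts, so that RNA captured through its alkyne group after a short pulse is enriched for recently transcribed molecules. After a short pulse the captured pool is set mainly by transcription, and after a longer pulse processing and decay also weigh on it.

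Control and CKO cells of the C57BL/6 strain were each labelled with 0.5 mM EU for 10, 20, 30 or 60 min, 48 h after seeding, with 2 libraries in each of the 8 groups. All groups shared a serum medium with LIF and the inhibitors CHIR99021 (of GSK3) and PD0325901 (of MEK), which hold the cells in a naive pluripotent state. The labels do not say how the deletion was induced, how many clones were used or whether the 2 libraries of a group are separate cultures, so p-values cover only the spread among these libraries, which may be technical. The gene table used here matched 0 of the identifiers to a symbol. Members are therefore described by rank, with 4 given by identifier, and their functions, their promoters, the level of Mettl14 and the markers of stem cells and of other cell types were not analysed here. The counting is not known to use strand, so overlapping, antisense and near-identical genes have uncertain counts.

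Mouse counts per library ranged from 11902184 to 28502750 outside the CKO 30 min group, whose libraries held 5188643 and 5109162. These latter libraries stood apart from the rest. They detected 30583 and 31826 identifiers, against 21173 to 26857 in the other 14 libraries, and the 7287 identifiers of mean CPM 20 or more took 82.1% and 82.5% of their counts, against 94.0% to 94.8% elsewhere. Chi-square divided by its degrees of freedom between replicates was 3.51 to 21.0, beyond counting noise in all 8 groups.

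The members were of moderate abundance. Their mean over the 12 libraries ran from 21.0 to 378 CPM, with a median of 48.7 CPM against 59.7 CPM over the 7287 identifiers of mean CPM 20 or more, and 55 of them lay below 50 CPM. Together they took 0.900% ± 0.0024 of mouse counts in Control at 10 min (SD, n = 2), 0.883% ± 0.013 at 20 min and 0.979% ± 0.0004 at 60 min. In CKO the share was 0.515% ± 0.011 at 10 min (SD, n = 2), 0.626% ± 0.0036 at 20 min and 0.657% ± 0.029 at 60 min. The median member stood at 60.7 and 60.6 CPM in the Control libraries of 10 min and at 33.5 and 31.8 CPM in the CKO libraries. At 60 min it stood at 58.7 and 57.6 CPM in Control and at 37.9 and 41.4 CPM in CKO. These levels follow from the choice of members and are given without a test.

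**Figure D1:**
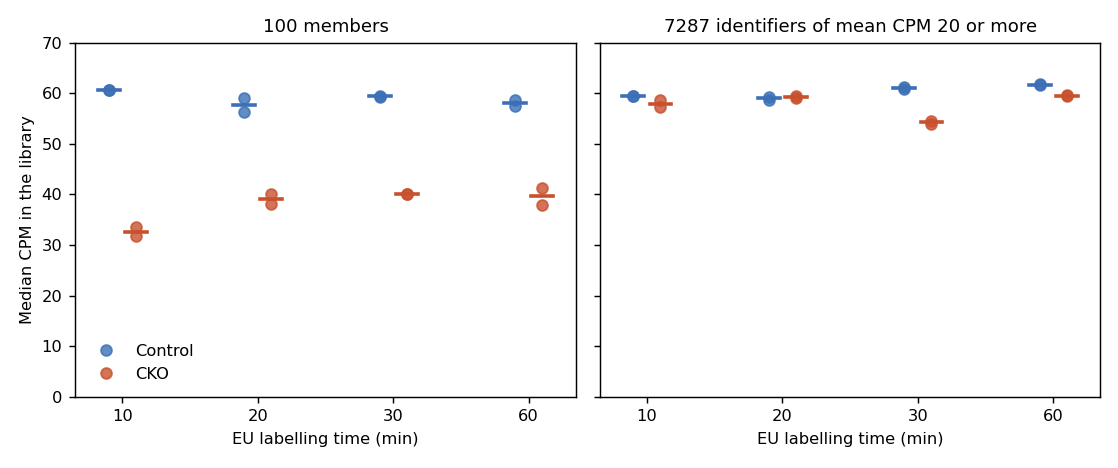
Median CPM in each library (y axis, linear from 0) by EU labelling time (x axis, min) for the 100 members (left) and for all 7287 identifiers of mean CPM 20 or more (right). Points are libraries and bars are means of 2. The members' median lies between 31.8 and 41.4 CPM in the CKO libraries and between 56.3 and 60.7 CPM in the Control libraries, the 30 min libraries included.

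At the 3 times that chose them, the falls were mostly under 2-fold and deepest after the shortest pulse. The median log2 ratio of CKO over Control was −0.76 at 10 min (1.70-fold lower), −0.48 at 20 min (1.39-fold lower) and −0.53 at 60 min (1.44-fold lower). Over the 7287 identifiers the medians were −0.07, −0.00 and −0.05. At 10 min 19 members were at least 2-fold lower, at 20 min 1 and at 60 min 5. The deepest of the 3 values was that of 10 min in 79 members, that of 60 min in 17 and that of 20 min in 4, against 42.6%, 37.0% and 20.4% of the 7287. The ratios of 10 min were also the more widely spread over the 7287, with quartiles of −0.35 and 0.25 against −0.13 and 0.14 at 20 min. The value of 20 min was most often the one that set the rank, being the shallowest of the 3 in 53 members. Both CKO libraries lay below both Control libraries in 98 members at 10 min, in 100 at 20 min and in 100 at 60 min, as chosen, against 37.1%, 32.6% and 43.2% of the 7287. In 98 members this held at all 3 times, against 13.6% of the 7287. The other two, ranked 39 and 41, overlapped at 10 min. Of all 7287, 2065 (28.3%) had a lower CPM in CKO at all 3 times. The limit of 100 falls on a gradual slope of values: the last 2 members had a maximum of −0.37 and −0.37, and the first 2 identifiers outside the limit had −0.37 and −0.37. Of the latter, the first was lower at 30 min and the second higher (edgeR log2 fold changes of −1.01 and 0.49, Benjamini-Hochberg adjusted p = 0.0214 and 0.045). Neither edgeR call held with ERCC counts as the library size (Benjamini-Hochberg adjusted p = 0.14 and 0.565) or without either Control library. The first was also lost with library totals (0.0701), with TMM factors from the 7287 (0.181) and with the stricter filter (0.0671), and the second with no filter (0.15).

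ENSMUSG00000042010.16 ranked first and was the only member at least 2-fold lower at all 3 times. Its Control libraries held 60.0 and 85.1 CPM at 10 min, 64.9 and 63.3 at 20 min and 42.4 and 44.0 at 60 min. Its CKO libraries held 15.9 and 11.9 CPM at 10 min, 24.9 and 23.6 at 20 min and 21.1 and 18.5 at 60 min. No CKO library reached the lowest Control library at any of these times. The log2 ratio was −2.30 at 10 min, −1.36 at 20 min and −1.09 at 60 min, so that the gap in CPM narrowed with labelling time. Between 10 and 20 min the CKO mean went from 13.9 to 24.3 CPM and the Control mean from 72.6 to 64.1 CPM, and by 60 min Control was at 43.2 and CKO at 19.8 CPM. At 30 min, outside the choice, Control held 55.7 and 56.2 CPM and CKO 21.6 and 25.6 CPM, again without overlap. The edgeR log2 fold change there was −1.47 (SE 0.20, Benjamini-Hochberg adjusted p = 0.00158).

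The members ranked 2 and 3 were over 2-fold lower in CKO at 60 min, whereas rank 2 had been under 2-fold lower at 10 and 20 min and rank 3 at 20 min. The member of rank 2 rose with EU time in Control, from 115 and 126 CPM at 10 min to 208 and 200 CPM at 60 min. In CKO it held 72.4 and 54.1 CPM at 10 min and 92.6 and 95.5 CPM at 60 min, and its log2 ratio lay between −0.92 and −1.11 at the 3 times. The member of rank 3 held 66.2 and 79.2 CPM in Control at 10 min and 67.6 and 67.6 at 60 min, against 33.5 and 24.0 and then 23.8 and 28.2 CPM in CKO. Both were also lower at 30 min. The edgeR log2 fold changes there were −1.52 (SE 0.10, Benjamini-Hochberg adjusted p = 9.38e-05) for rank 2 and −1.63 (SE 0.27, Benjamini-Hochberg adjusted p = 0.00335) for rank 3.

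The 30 min libraries, which were not used to choose the members, were tested with edgeR's quasi-likelihood test on these 4 libraries alone, with Benjamini-Hochberg adjustment over 22412 identifiers. Most members were lower in CKO again. Of the 100 members, 62 were called lower and 2 higher at an adjusted p under 0.05, and 36 did not pass. The background was high: 45.4% of the 7287 identifiers of mean CPM 20 or more were also called lower and 3.16% higher, while 15.6% of all identifiers tested were called lower and 31.7% higher. The median log2 fold change was −0.85 over the members, −0.46 over the 7287 identifiers and 0.44 over all 22412. The members' median minus that of the 7287 was −0.39, so that the members fell in a set of identifiers that was itself lower at 30 min. In plain CPM, 85 members had a lower mean in CKO at 30 min, against 69.3% of the 7287. The replicates of the genotypes did not overlap in 74 members that were lower, against 52.5% of the 7287, and in 9 that were higher, against 17.4%.

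The number of calls changed with the scaling. With scaling factors taken only from the 7287 identifiers, 34 members were called lower and 8 higher, against 13.6% and 14.5% of the 7287, and the members' median was −0.37 against 0.01. With ERCC counts as the library size, 28 were called lower and 2 higher, against 6.45% and 0.302%, with a median of −0.95 against −0.59. The members' median minus that of the 7287 lay between −0.39 and −0.36 under TMM and the other scalings run with all 4 libraries. A change of scaling moves all identifiers by about the same amount, so this difference could hardly vary and is no sign of stability. Under TMM and all 13 other settings 25 members were called lower each time, and the same 2 were called higher each time. The matching share of the 7287 was not computed, so these counts have no background to be judged by.

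**Figure D2:**
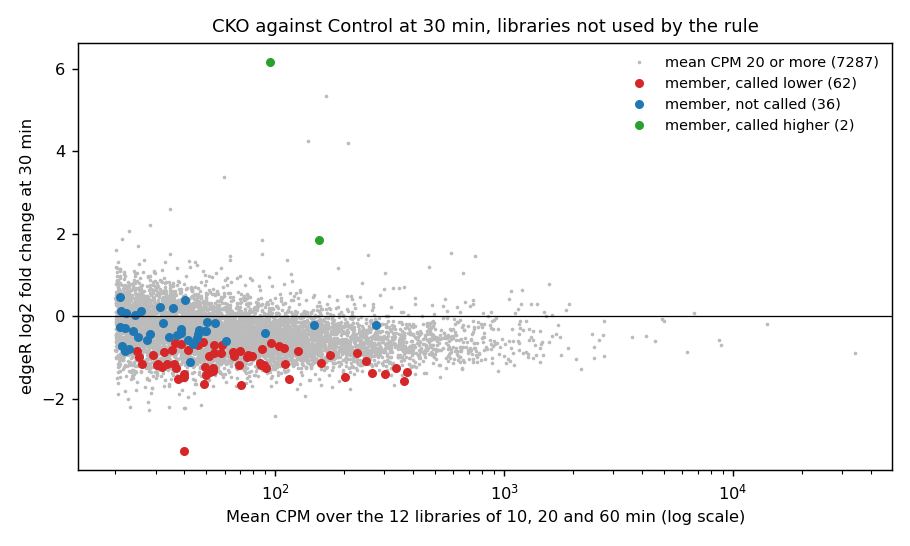
edgeR log2 fold change of CKO against Control at 30 min (y axis) by mean CPM over the 12 libraries of the other times (x axis, log scale). Grey points are the 7287 identifiers of mean CPM 20 or more and coloured points are members: 62 called lower, 36 not called and 2 called higher, the latter at 1.84 and 6.16.

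More abundant members were called lower at 30 min more often, as were abundant identifiers at large. Among the 55 members below 50 CPM, 25 (45.5%) were called lower, against 19.5% of the 3051 identifiers of that range. Of the 27 members from 50 to 100 CPM, 22 (81.5%) were called, against 49.9% of 2076, and of the 18 members above 100 CPM, 15 (83.3%) were, against 77.6% of 2160. Counts per member were lowest in the CKO 30 min libraries, down to 17 and 9 counts. The 62 members called lower had median log2 ratios of −0.81, −0.48 and −0.56 at 10, 20 and 60 min. The 36 that did not pass had −0.73, −0.45 and −0.44. The fold change at 30 min was negative in 28 of them, in a fit where the median over the 7287 was itself −0.46. The 4 most abundant members passed. The member of rank 40, the highest at 378 CPM, held 435 and 428 CPM in Control and 214 and 181 CPM in CKO at 30 min. The edgeR log2 fold change was −1.35 (SE 0.09, Benjamini-Hochberg adjusted p = 9.38e-05). The members of rank 20, 66 and 94, at 365, 336 and 302 CPM, had edgeR log2 fold changes of −1.57, −1.27 and −1.40, with Benjamini-Hochberg adjusted p of at most 6.23e-05.

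Of the 12 highest-ranked members, 9 were called lower at 30 min and those of rank 4, 5 and 6 were not. Of the 9 calls, that of rank 9 (edgeR log2 fold change −0.70, Benjamini-Hochberg adjusted p = 0.0127) was lost with ERCC counts as the library size (0.183), with TMM factors from the 7287 (0.335), with library totals (0.0752) and without either Control library (0.116 and 0.234). That of rank 10 was lost with ERCC counts (0.0892), and that of rank 8 without the first Control library (0.101). The member of rank 4 held 63.0 and 59.9 CPM in Control and 58.2 and 31.7 CPM in CKO, where the replicates disagreed most of these 3. Its edgeR log2 fold change was −0.68 (SE 0.27, Benjamini-Hochberg adjusted p = 0.0699). It was −1.25 without the first CKO 30 min library and −0.34 without the second. With DESeq2 and with edgeR without a filter the same difference passed, at Benjamini-Hochberg adjusted p of 0.0483 and 0.00184. It also passed with edgeR on all 16 libraries (Benjamini-Hochberg adjusted p = 0.00472). That fit takes part of its spread from the libraries that chose the members, so it is no separate check. The member of rank 5 held 59.7 and 61.2 CPM in Control and 68.0 and 60.5 CPM in CKO at 30 min, with overlap. That of rank 6 held 24.0 and 25.5 against 26.4 and 21.3 CPM, also with overlap. At the other 3 times their log2 ratios had been −1.39, −0.72 and −0.78 for rank 5 and −0.91, −0.72 and −0.76 for rank 6.

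**Figure D3:**
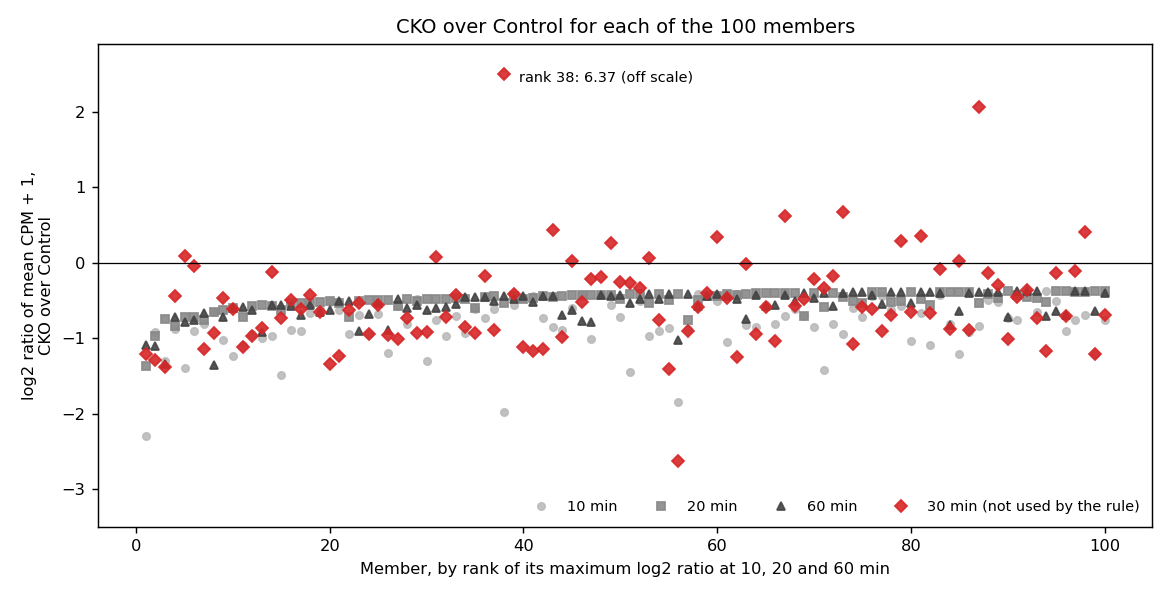
log2 ratio of mean CPM + 1 in CKO over Control (y axis) for each of the 100 members in order of rank (x axis), at 10, 20 and 60 min (grey symbols, used by the rule) and at 30 min (red diamonds, not used). The 30 min values spread from −2.62 to 6.37, the latter drawn at the top edge and labelled, and 85 of 100 lie below 0.

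ENSMUSG00000061991.2, of rank 56, had the lowest value of all members at 30 min and the steepest rise with labelling time in both genotypes. Its Control libraries held 19.4 and 31.0 CPM at 10 min, 38.6 and 42.3 at 20 min, 19.7 and 21.7 at 30 min and 87.6 and 98.6 at 60 min. Its CKO libraries held 6.72 and 5.86 CPM at 10 min, 34.2 and 26.0 at 20 min, 3.28 and 1.76 at 30 min and 41.5 and 49.4 at 60 min. The genotypes did not overlap at any time, and the levels of 30 min fell below those of 20 and 60 min in both. The edgeR log2 fold change at 30 min was −3.26 (SE 0.51, Benjamini-Hochberg adjusted p = 0.00266), and lay between −3.84 and −2.93 without any 1 of the 4 libraries. It rests on 17 and 9 counts in the CKO libraries.

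Of the 15 members with a higher mean CPM in CKO at 30 min, 2 were called higher. ENSMUSG00000029179.14, of rank 38, held 125 and 121 CPM in Control and 10118 and 10480 CPM in CKO, where it was the fifth most abundant identifier of both libraries and took 1.01% and 1.05% of all mouse counts. Its edgeR log2 fold change there was 6.16 (SE 0.04, Benjamini-Hochberg adjusted p = 1.15e-10). At 10 and 60 min it was lower in CKO. Control held 275 and 239 CPM at 10 min and 52.0 and 51.5 at 60 min, and CKO held 62.2 and 66.4 CPM at 10 min and 34.5 and 40.9 at 60 min. Because of this member alone, the summed share of the members at 30 min was higher in CKO (1.64% ± 0.0069, SD, n = 2) than in Control (0.908% ± 0.0057). The other 99 members took 0.621% and 0.595% in CKO and 0.891% and 0.900% in Control, without overlap.

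ENSMUSG00000006056.13, of rank 87, held 144 and 160 CPM in Control and 643 and 637 CPM in CKO at 30 min. Its edgeR log2 fold change there was 1.84 (SE 0.08, Benjamini-Hochberg adjusted p = 1.75e-05). At 10 min it held 171 and 183 CPM in Control and 80.1 and 117 CPM in CKO, and at 60 min 185 and 194 against 136 and 154 CPM. Both higher values occurred in the libraries with the fewest counts and the most identifiers detected, and the part of those features in the result was not tested. The members of rank 67 and 73 had the next highest fold changes at 30 min, 0.40 (SE 0.20) and 0.47 (SE 0.30), with edgeR adjusted p (Benjamini-Hochberg) of 0.141 and 0.23. With scaling factors from the 7287 identifiers alone both passed as higher, at 0.88 and 0.94.

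**Figure D4:**
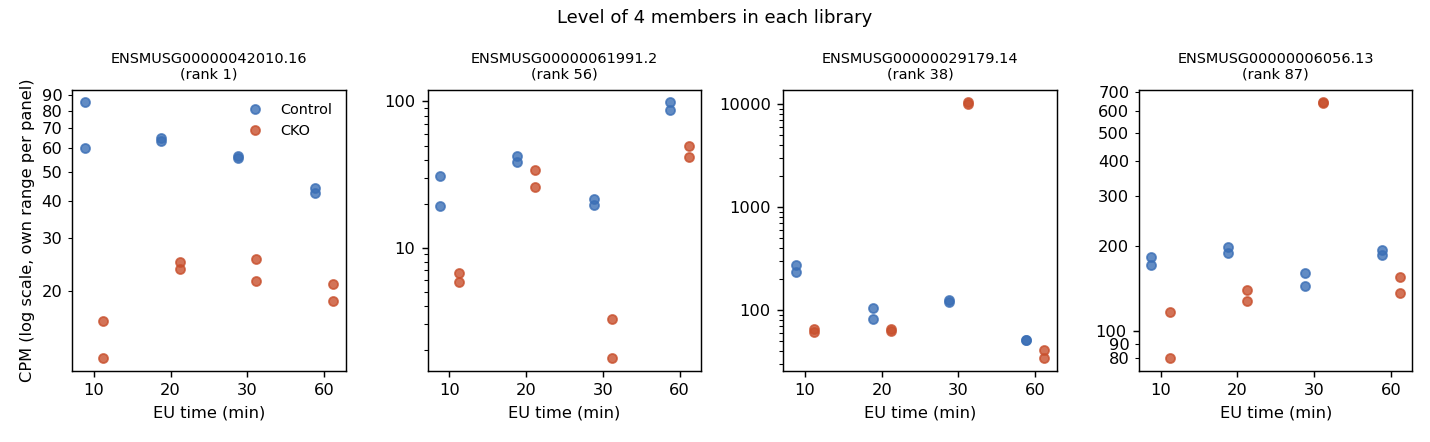
CPM in each library (y axis, log scale with its own range in each panel) by EU labelling time (x axis, min) for 4 members. ENSMUSG00000042010.16 and ENSMUSG00000061991.2 lie lower in CKO at every time, whereas ENSMUSG00000029179.14 and ENSMUSG00000006056.13 lie lower at 10, 20 and 60 min and higher at 30 min, at 10118 and 10480 CPM and at 643 and 637 CPM in the CKO libraries.

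The falls above are shares of the captured mouse RNA. Set against the ERCC spike-in RNA, which was added after capture, the direction at 10 min was the opposite for most members. Mouse counts per ERCC count were 11.9 ± 0.50 in Control and 31.4 ± 4.05 in CKO at 10 min (SD, n = 2), 45.4 ± 0.25 and 59.8 ± 0.67 at 20 min, and 132 ± 1.05 and 141 ± 19.1 at 60 min. At 10 min only 7 members had fewer counts per ERCC count in CKO, and the median log2 ratio over the members was 0.60. Over the 7287 identifiers it was 1.33, and 0.206% were lower. At 20 min 87 members were lower per ERCC count, by a median log2 ratio of −0.08, against 3.39% of the 7287. At 60 min all 100 were lower, by a median of −0.43, against 43.2% of the 7287 with a median of 0.04. In this scale too the libraries of 10, 20 and 60 min are those that chose the members.

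On this scale the replicates of the genotypes were apart in most members at 10 and 60 min and overlapped in most at 20 min. At 10 min 82 members had both CKO libraries above both Control libraries per ERCC count, against 98.6% of the 7287, and 3 had both below, against 0.0961%. At 60 min 98 members had both CKO libraries below both Control libraries, against 17.4% of the 7287, and 0 had both above, against 32.5%. At 20 min 46 had both CKO libraries below, against 1.41% of the 7287, and 0 had both above, against 6597 of the 7287. Spike-in amount, cell number, RNA recovery and capture yield cannot be told apart in this ratio. At 30 min 93 members were lower per ERCC count, against 87.0% of the 7287, and 79 were lower and 3 higher without overlap, against 63.4% and 2.81%, with mouse counts per ERCC count of 81.6 and 47.4 in the CKO libraries.

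The 7 members lower on both scales at 10 min were those of rank 1, 5, 15, 38, 51, 56 and 71. Their means were also lower per ERCC count at 20 and 60 min. The replicates of the genotypes overlapped on this scale at 10 min for rank 5, 15, 51 and 71. At 20 min they overlapped for rank 38, 51 and 56, with log2 ratios per ERCC count of −0.14, −0.04 and −0.03. Across the 7287 identifiers 8 were lower per ERCC count at all 3 times. ENSMUSG00000042010.16 had the deepest values of these members at 10 and 60 min, with log2 ratios per ERCC count of −1.01 at 10 min and −1.04 at 60 min. The other 6 lay between −0.62 and −0.01 at 10 min.

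**Figure D5:**
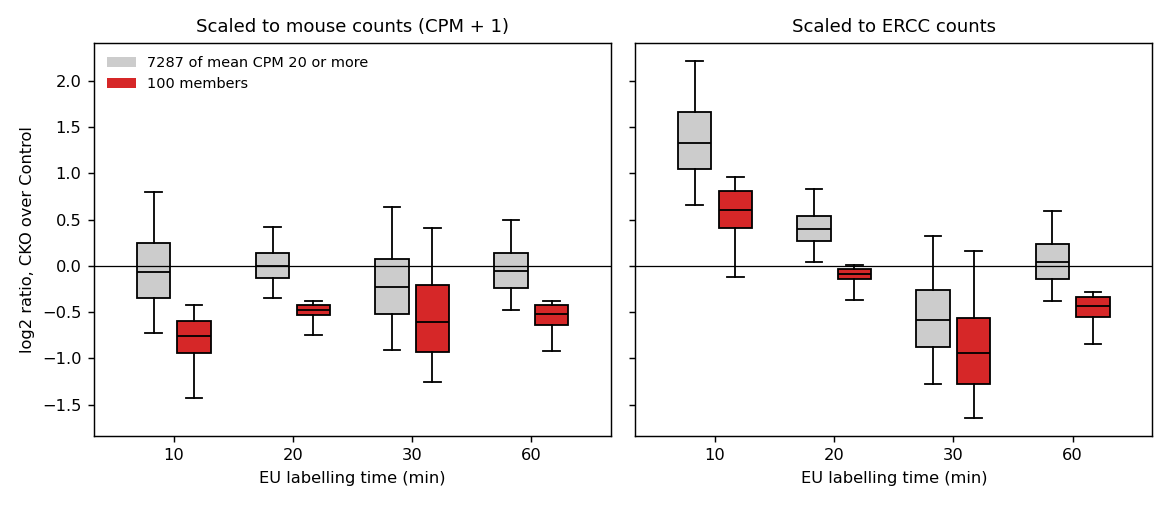
log2 ratio of CKO over Control (y axis) by EU labelling time (x axis, min), scaled to mouse counts (left) or to ERCC counts (right), for the 7287 identifiers of mean CPM 20 or more (grey) and the 100 members (red). Boxes are quartiles with the median and whiskers run from the 5th to the 95th percentile of identifiers. The members' median lies below that of the 7287 at every time on both scales, but above 0 at 10 min per ERCC count, at 0.60.

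With labelling time, the median share of the members shifted upward in CKO and hardly in Control. From 10 to 60 min of EU the median log2 change in CPM was 0.01 in Control, as it was over the 7287 identifiers (0.01), and 0.28 in CKO, against 0.05 over the 7287. In Control 43 members rose and 40 fell without overlap of replicates, against 39.7% and 36.4% of the 7287. In CKO 58 rose and 21 fell without overlap, against 39.2% and 32.1%. These libraries chose the members, and a shallower fall at 60 than at 10 min is the same difference seen the other way, so no test is given. The changes spanned a wide range, from −2.29 in Control for ENSMUSG00000029179.14 to 2.67 in CKO for ENSMUSG00000061991.2.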

How the data were processed

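Each of the 16 deposited files holds raw counts, with 54446 mouse identifiers and 92 ERCC species. The submitters' processing notes name mm10 as the build and HTSeq, HISAT2 2.1.0, Trimmomatic 0.38 and CASAVA as tools. The annotation release, counted feature and strand setting were not given in the sources used here. CPM used totals of mouse counts. The members and lists were chosen with earlier results of these data known. The gene lists could not be applied, since no identifier matched a symbol, and the named values are given by rank. They are the 12 highest ranked, the 4 most abundant, the 6 lowest and 4 highest at 30 min, and 2 on either side of the limit. Those of rank 7, 11, 12, 55 and 62 are given only here. Their edgeR log2 fold changes at 30 min were −1.40, −1.36, −1.22, −1.65 and −1.52, with Benjamini-Hochberg adjusted p of at most 0.00696. The identifiers printed are the first-ranked member and those with the lowest and the 2 highest values at 30 min.

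Only the 30 min contrast was tested, with edgeR 4.0.16 (R 4.3.3; quasi-likelihood F-test, robust fit, TMM scaling, filterByExpr, Benjamini-Hochberg adjustment, threshold 0.05), and standard errors came from its F statistic. The procedure was also run on simulated counts in which a small set of abundant identifiers fell and the rest did not change. Those counts lacked the wide shift of the CKO 30 min libraries, so that run cannot vouch for the scaling or the calls at 30 min. Depth was 5109162 to 28502750 mouse counts per library. Alternatives were DESeq2 1.42.0, other scalings and filters, all 16 libraries, a replicate block and each library left out.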

Additional observations from a re-analysis of the deposited data

Results flagged for a closer look

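In CPM, 9 members had both CKO libraries above both Control libraries at 30 min and below both at 10, 20 and 60 min. On that scale, samples of 1 time moved against those of the others. The difference between the times was not tested. The log2 ratios at 30 min were 6.37 for rank 38, 2.06 for rank 87, 0.67 for rank 73, 0.62 for rank 67, 0.43 for rank 43, 0.41 for rank 98, 0.35 for rank 81, 0.29 for rank 79 and 0.26 for rank 49. Of these, those of rank 38 and 87 passed the edgeR test at 30 min. The edgeR log2 fold changes of rank 49, 79 and 81 were 0.04, 0.08 and 0.14. Per ERCC count, 3 of the 100 members were higher without overlap at 30 min, against 2.81% of the 7287. At 10 min 3 were lower without overlap per ERCC count, against 0.0961%. The replicates of the CKO 30 min group differed by over 2-fold in 0 of the 9. The same pattern was seen in 55 of the 7287 identifiers of mean CPM 20 or more (0.755%), but the choice of members fixes its part at 10, 20 and 60 min. Among identifiers with that part, it was seen in 9 of 98 members (9.18%) and in 55 of 988 of the 7287 (5.57%), a description with no test.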

How the results depend on the processing

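At 30 min the members called lower numbered 62 and those called higher 2, with a median log2 fold change of −0.85. ERCC counts as library size gave 28 lower with a median of −0.95, and TMM factors from identifiers of mean CPM 20 or more gave 34 lower and 8 higher with a median of −0.37. Library totals gave 52 lower with a median of −0.59, against 26.5% of the 7287 called lower. The stricter filter gave 54 with a median of −0.66, against 29.8%. No filter on low counts gave 72 with a median of −0.94, against 55.3%. Leaving out each library in turn gave medians of −1.04 to −0.88 over the members, against −0.56 to −0.52 over the 7287. In such fits the genotype with 1 library adds nothing to the spread, which comes from the other genotype's 2 libraries. The lone library is assumed to vary like them. Fewer members were called lower without either Control library and more without either CKO library. For that reason neither change measures stability. With the replicate number as a block, 66 were called lower and 2 higher, against 47.2% and 3.0% of the 7287. The replicate numbers did not pair the samples, since deviations of equal numbers had a correlation of −0.01 across identifiers. Over all identifiers tested, calls were 67.0% higher in CKO, against 91.3% with ERCC counts and 89.3% with TMM factors from the abundant identifiers. Of the named values, 16 of the 22 calls held in each of the 13 settings and none of the 22 changed sign. Of the 5 not called, 2 changed sign: rank 5 was −0.14, but 0.34 with TMM factors from the abundant identifiers, 0.12 with library totals and 0.052 with the stricter filter, and rank 6 was −0.28, but 0.20 with those TMM factors. Rank 100 lost its call with ERCC counts and with those TMM factors (edgeR, Benjamini-Hochberg adjusted p = 0.123 and 0.094), and rank 102 with the replicate block (0.082). The choice of members was more open: 54 of 100 remained with a floor of 10 CPM, 45 with 50 CPM, 27 with ERCC scaling, 88 with TMM, 97 and 92 with pseudocounts of 0.1 and 5, and 79 to 94 without 1 of the 12 libraries.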
